A study of Astyanax mexicanus with 14 samples.

Results

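Cave larvae of the Mexican tetra, Astyanax mexicanus, were compared with surface larvae that had received no UV-B. The comparison took the 7 control libraries of the 14 in the series, 3 of the Pachón cave population (replicates 2, 3 and 4) and 4 of the surface population (replicates 1 to 4), and left the 7 UV-B libraries out of its test. Both groups were 6 days post-fertilization, had been given 60 s of white light at the onset of the light phase, and were collected 90 min later as whole bodies, with 4 larvae pooled in each library. No transgene, deletion or drug was named for either group, and the labels did not say whether the pools came from separate clutches, so p-values measure only the spread between these pools. In whole-body pools, fewer cells of a type and less RNA per cell cannot be told apart.

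Surface fish of this species live in rivers and see. Fish of the Pachón cave are blind and pale: the embryo forms an eye with a lens and a retina, and the eye then stops growing and degenerates. In a working retina, photoreceptors hold stacks of membrane with opsins and an enzyme cascade of transducin, phosphodiesterase and ion channels, and they signal to bipolar cells through ribbon synapses. Light also sets the circadian clock of fish directly in many tissues, through genes such as cry1a and per2, which light induces in zebrafish.

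Total counts ran from 7.89 to 15.26 M (mega-counts) in surface controls and from 8.67 to 9.38 M in cave controls. Levels are given as normalised CPM, counts per mega-count of the library total after TMM scaling. A gene was called when the adjusted p-value of edgeR's quasi-likelihood test was under 0.05. The spread between replicates was wider in cave than in surface controls, with a median coefficient of variation of 15.6% against 11.4% over genes. Markers of the main tissues of a larva were read in every library: mylz3 of fast muscle at 3678 to 7734 CPM, elavl4 of neurons at 129.7 to 187 CPM, apoa1a of liver and yolk at 189.7 to 430 CPM, fabp2 of enterocytes at 190.4 to 456 CPM, tp63 of basal epidermis at 12.1 to 35.8 CPM and myl7 of heart at 3.65 to 30.6 CPM. Of the photoreceptor markers, rho and crx were read in every surface control, and rho was read at 18 to 20 counts in cave controls.

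Of 15812 genes tested, 4367 were called (27.6%), 2003 higher (12.7%) and 2364 lower (15.0%) in cave larvae. Of the calls, 1713 (10.8% of genes tested) reached 2-fold. The split depended on scaling: with library totals in place of TMM, which moved the median of all genes from -0.03 to -0.21 on the log2 scale, 1192 were higher and 3845 lower. Typical shifts were small, with a median log2 fold change (cave over surface) of 0.75 among genes called higher and -0.90 among genes called lower. Most of the steepest differences went down in cave larvae: of 356 genes called with at least 8-fold change, 283 (79.5%) were lower and 73 higher, and in the class between 1 and 2 on the log2 scale the share lower was 55.5%. Names were known for 2078 of the 19076 genes in the table (10.9%), taken from identifier and name pairs in the study's tables of UV-B responses. Genes with a name are therefore no random sample, and of the 2073 with a name that were tested, 706 were called (34.1%), 297 higher (14.3%) and 409 lower (19.7%). Named genes with at least 8-fold change were 57, and 55 of them were lower in cave larvae, 25 in a retina list and 30 outside those lists. The retina lists do not hold every retinal gene, so that split follows list membership.

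**Figure D1:**
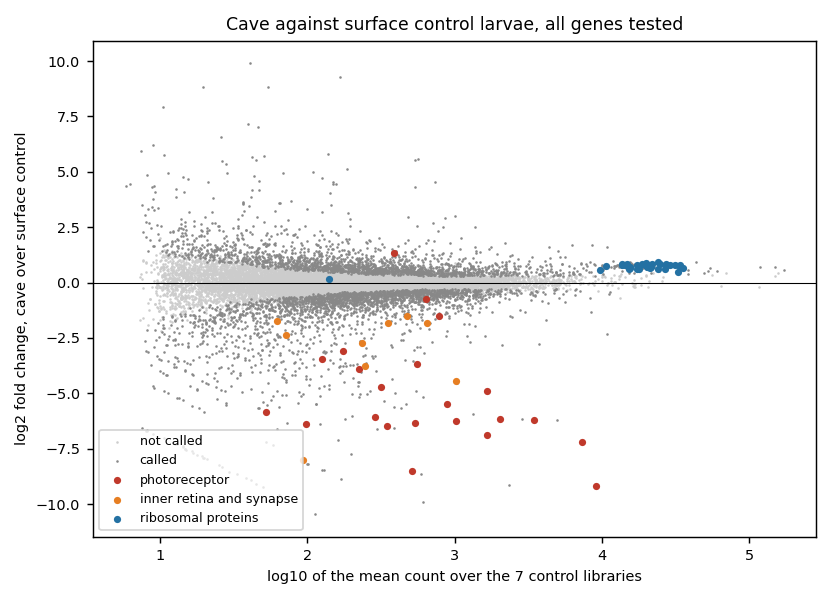
Log2 fold change of cave over surface controls (y axis) against log10 of the mean count over the 7 control libraries (x axis), one point for each of the 15812 genes tested. Photoreceptor genes lie far below 0, with a median of -5.98, inner retina and synapse genes lie below it with a median of -2.37, and ribosomal protein genes form a tight group above it at high counts, with a median of 0.76.

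Genes of the retina were lower in cave larvae. All but 2 of the 46 genes in the photoreceptor, inner retina and retinal transcription factor lists were called lower in cave larvae (44 genes), and the groups did not overlap in any of those 44, against 15.0% called lower and 34.8% without overlap in either direction among all genes tested. The summed level of the 22 photoreceptor genes was 4404, 3476, 4434 and 4299 CPM in surface controls 1 to 4 and 162, 172 and 188 CPM in cave controls 2 to 4. Surface control 2 was the lowest of its group and still lay far above every cave library. Of these 22 genes, 21 were called lower and 1 higher, with a median log2 fold change of -5.98 against -0.03 over all genes tested.

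**Figure D2:**
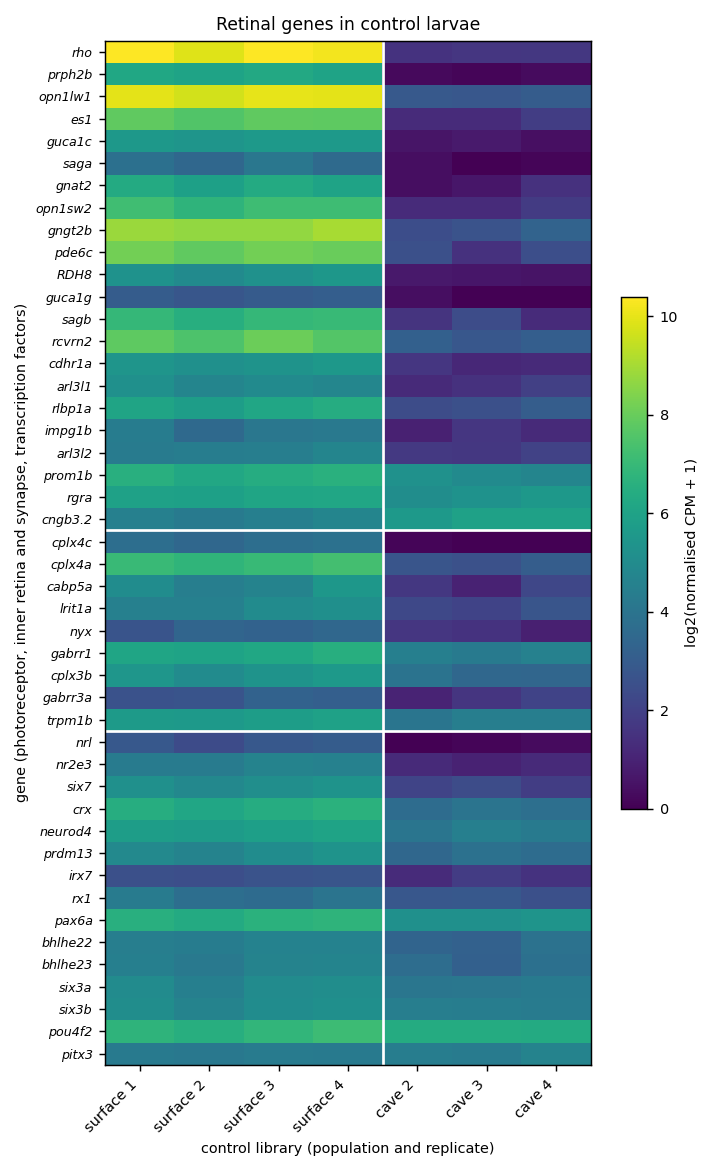
Level of the 46 retinal genes, log2(normalised CPM + 1) as colour, in the 4 surface and 3 cave control libraries (columns). Genes (rows) are grouped as photoreceptor, inner retina and synapse, and transcription factors, and ordered by fold change in each group; all rows darken in the cave columns except cngb3.2 and pitx3.

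The opsin of rods, rho, had the lowest log2 fold change of all named genes. Its raw counts were 12120, 10044, 21095 and 20269 in surface controls 1 to 4 and 18, 19 and 20 in cave controls 2 to 4. In normalised CPM these were 1343, 943, 1328 and 1192 against 1.88, 2.13 and 2.24, so the transcript of the rods' main protein was read at a trace level in each cave pool and at a high level in each surface pool (log2 fold change -9.18 with SE 0.21, adjusted p = 9.21e-12), a 581-fold difference in the fit. The cone opsins were also low in cave larvae. The long-wavelength opsin opn1lw1 was read at 989, 812, 1024 and 1006 CPM in surface controls and at 6.46, 6.06 and 7.05 CPM in cave controls (log2 fold change -7.21 with SE 0.16, adjusted p = 9.21e-12). The short-wavelength opsin opn1sw2 was at 147, 108.02, 143 and 142 CPM against 1.46, 1.46 and 2.46 CPM (log2 fold change -6.25 with SE 0.21, adjusted p = 2.70e-10). Surface control 2 had the lowest level of its group for all 3 opsins. Opsins are a family of similar genes, and the handling of reads that map to several places is not stated, so how reads were split between opsin copies is uncertain.

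The cascade that carries the light signal was low with the opsins. The alpha subunit of cone transducin, gnat2, was at 79.8, 59.6, 80.3 and 64.7 CPM in surface controls and 0.313, 0.561 and 1.79 CPM in cave controls (log2 fold change -6.34 with SE 0.31, adjusted p = 8.22e-09). Its gamma subunit gngt2b had a log2 fold change of -6.19 and the cone phosphodiesterase pde6c one of -6.16. Genes that tune or end the signal were low too, namely the arrestins saga and sagb (-6.37 and -5.48), the guanylate cyclase activators guca1c and guca1g (-6.46 and -5.86) and recoverin, rcvrn2 (-4.90). The cone channel subunit cngb3.2 was the exception. It was read at 22.3, 18.03, 21.5 and 25.7 CPM in surface controls and 46.9, 60.4 and 60.4 CPM in cave controls, higher in each cave library than in any surface library (log2 fold change 1.33 with SE 0.14, adjusted p = 1.58e-05).

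Genes of the outer segment and of other parts of photoreceptors were lower by unequal amounts, with prph2b among the lowest of the named genes. The disc rim protein prph2b had 5 counts over the 3 cave controls against 3613 over the 4 surface controls, a ratio of 377 after library size (95% interval of counting error 162 to 1163). The cadherin cdhr1a (-4.70), the matrix proteoglycan impg1b (-3.45) and es1, which marks cone mitochondria in zebrafish (-6.88), fell by smaller amounts. The GTPases arl3l1 and arl3l2 had log2 fold changes of -3.89 and -3.09. Least affected among these was prom1b, a membrane protein that epithelia outside the eye also make (-1.49). The visual cycle returns retinal to the opsins, and its members differed in size of change. The outer segment retinol dehydrogenase RDH8 was at 38.4, 30.2, 36.9 and 44.1 CPM against 0.6251, 0.561 and 0.448 CPM (log2 fold change -6.09 with SE 0.25, adjusted p = 1.28e-09). The retinal carrier rlbp1a had a log2 fold change of -3.67. The opsin rgra, made in retinal pigment epithelium and glia, was at 60.9, 58.3, 67.1 and 69.4 CPM against 33.5, 38.3 and 45.8 CPM (log2 fold change -0.73 with SE 0.12, adjusted p = 0.000787), the smallest drop of the list. Fitted fold changes of genes with 5 or fewer counts over the cave controls (prph2b, saga, guca1g, nrl, dgkab and cplx4c) depend on the prior count. Their ratios after library size, with intervals of counting error, were 88.8 (34.5 to 327) for saga, 63.9 (21.7 to 311) for guca1g, 56.6 (19.2 to 276) for nrl, 148 (57.7 to 545) for dgkab and 341 (60.9 to 13470) for cplx4c.

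All 9 genes of the inner retina and its synapses were called lower, with a median log2 fold change of -2.37. Their summed level was 368, 324, 377 and 462 CPM in surface controls and 65.8, 62.1 and 73.9 CPM in cave controls. The complexins of ribbon synapses, which hold vesicles ready for release, changed by unequal amounts. The complexin cplx4a was at 130.4, 112, 127 and 154 CPM against 5.73, 5.05 and 7.39 CPM (log2 fold change -4.45 with SE 0.17, adjusted p = 6.40e-10). For cplx4c 1 count was read over the cave controls, and cplx3b had a log2 fold change of -1.83. The bipolar cells that answer to light onset use the channel trpm1b, and the proteins nyx and lrit1a act with it. The channel trpm1b was at 49.2, 47.9, 53.6 and 60.7 CPM in surface and 15.3, 20.8 and 20.6 CPM in cave controls (log2 fold change -1.50 with SE 0.14, adjusted p = 5.71e-06), the smallest change of the list, while nyx was at -2.37 and lrit1a at -2.72 on the log2 scale. The calcium sensor of bipolar cells cabp5a (-3.76) and the retinal GABA receptor subunits gabrr1 (-1.85) and gabrr3a (-1.74) were also lower. Levels in cave larvae thus ranged from near the floor of detection, as for cplx4c, to levels of 15.3 CPM and more, as for trpm1b.

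Transcription factors of the retina fell in a graded way. Of 15 tested, 14 were called lower, with a median log2 fold change of -1.35. Factors that specify photoreceptors showed the largest drops. The photoreceptor factor crx was at 86.96, 69.98, 85.2 and 98.7 CPM in surface controls and 11.9, 15.1 and 12.8 CPM in cave controls, a 6.503-fold difference (log2 fold change -2.70 with SE 0.15, adjusted p = 3.28e-08). The rod factor nrl was listed at 6.31, 4.23, 6.36 and 7.18 CPM against 0, 0.112 and 0.224 CPM and the rod factor nr2e3 at 18.8, 18.9, 24.4 and 22.6 CPM against 1.35, 1.01 and 1.34 CPM (log2 fold change -4.10 with SE 0.23, adjusted p = 3.28e-08). The cone factor six7 had a log2 fold change of -3.31. Factors with further roles in the brain and in the early eye field changed less. The eye field gene pax6a was at 94.4, 80.8, 98.01 and 108.1 CPM against 36.4, 36.5 and 40.98 CPM (log2 fold change -1.35 with SE 0.12, adjusted p = 3.55e-06), rx1 had a log2 fold change of -1.35, and six3a and six3b had changes of -0.83 and -0.65. The factors neurod4 (-1.65), irx7 (-1.40), prdm13 (-1.42), bhlhe22 (-1.08) and bhlhe23 (-0.99), which act in interneurons or their precursors, were lower too. The ganglion cell factor pou4f2, also made in other sensory neurons, was at 109, 89.2, 112 and 137 CPM against 83.2, 83.7 and 80.7 CPM (log2 fold change -0.46 with SE 0.14, adjusted p = 0.0234). That call was lost without cave control 3 or 4 or surface control 3 or 4, with an adjusted p of up to 0.0755. The lens and midbrain factor pitx3 was not called, at 18.6, 16.8, 19.1 and 18.2 CPM against 20.002, 19.3 and 24.4 CPM (log2 fold change 0.20 with SE 0.14, adjusted p = 0.306).

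Large drops were also read outside the retina lists. There, 30 named genes were called at least 8-fold lower, with log2 fold changes from -7.09 to -3.04. A gene outside those lists can still belong to the retina. Among the 30, chosen after their values were seen, were the opsin opn6a and pdcb, whose product binds transducin subunits. The mitochondrial creatine kinase ckmt2a, listed with muscle genes, was at 426, 328, 418 and 351 CPM in surface controls and 4.48, 3.48 and 8.29 CPM in cave controls (log2 fold change -6.16 with SE 0.24, adjusted p = 8.56e-10). It was the single gene of 21 in the muscle list that was called lower. The glutamate receptor subunit grik1b was at 68.4, 61.3, 75.03 and 95.8 CPM against 8.02, 5.61 and 11.4 CPM (log2 fold change -3.19 with SE 0.22, adjusted p = 2.90e-07), which was low in all 3 cave pools. Lipid kinase dgkab was at 19.7, 17.4, 22.03 and 24.8 CPM against 0.104, 0 and 0.336 CPM. The gene aifm2, which protects membranes from lipid peroxidation, was at 11.7, 18.7, 14.5 and 15.1 CPM against 0.208, 0 and 0.784 CPM (log2 fold change -5.49 with SE 0.45, adjusted p = 1.49e-06), unlike most of the antioxidant list. The cells in which these genes were read were not measured.

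Among named genes that averaged 50 counts or more and did not overlap between groups, cyp2r1, gck and dbpb had the highest log2 fold changes. The vitamin D 25-hydroxylase cyp2r1 was at 1.44, 1.503, 1.51 and 0.883 CPM in surface controls and 15.2, 22.4 and 14.1 CPM in cave controls, 12.9-fold higher (log2 fold change 3.69 with SE 0.26, adjusted p = 3.87e-07). Glucokinase, gck, which phosphorylates glucose in liver and pancreatic beta cells, was at 1.99, 3.66, 1.95 and 3.77 CPM against 33.02, 39.04 and 6.61 CPM (log2 fold change 3.18 with SE 0.47, adjusted p = 0.000241). Cave control 4 lay well below the other cave libraries for gck, and without it the log2 fold change was 3.66, against 2.81 without cave control 3. The groups did not overlap in either gene. The heart gene myl7, a cardiac myosin light chain, was at 8.198, 9.11, 8.25 and 3.65 CPM against 19.9, 23.7 and 30.6 CPM (log2 fold change 1.76 with SE 0.26, adjusted p = 0.000237), and surface control 4 was the lowest library. The GTPase regulator arhgef12b was at 57.3, 56.2, 62.8 and 58.01 CPM against 167, 195 and 138 CPM (log2 fold change 1.49 with SE 0.12, adjusted p = 1.61e-06). The nucleoside diphosphate kinase nme2b.1, one of a family of similar copies, was at 258, 299.6, 279 and 380.4 CPM against 823, 1175 and 1019.7 CPM (log2 fold change 1.71 with SE 0.15, adjusted p = 2.34e-06). The other named genes at the top were the monocarboxylate transporter slc5a8l (1.54), the cytochrome cyp2n13 (1.45), the cytidine deaminase cdaa (1.45) and the transglutaminase tgm1l2 (1.33).

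Among genes with no known name that averaged 50 counts or more and did not overlap, ENSAMXG00000006950 had the highest fitted log2 fold change and ENSAMXG00000033547 the lowest, though fitted values at 0 or a few counts depend on the prior count. ENSAMXG00000006950 was read at 0.111, 0.0939, 0 and 0.0588 CPM in surface controls, a total of 3 counts, and at 38.9, 36.8 and 52.5 CPM in cave controls, a ratio of 747 (255 to 3626, counting error). ENSAMXG00000033547 was read at 20.6, 10.5, 11.9 and 18.1 CPM in surface controls and had 0 counts in cave controls, at least 138-fold lower at a floor of 3 counts over the group. Each was thus read almost wholly in 1 of the populations. Reads of both populations were mapped to the same genome version. Whether sequence or copy differences between the populations lowered any count was not tested.

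Clock genes moved in both directions. Of 9 tested, 5 were called lower and 1 higher, with a median log2 fold change of -0.65. The share called was 66.7%, against 27.6% of all genes and 34.1% of named genes. The 9 include the photolyase cpdp, given below with the UV damage genes. The light-induced repressor cry1a was at 144, 135, 139 and 149 CPM in surface controls and 82.4, 86.3 and 86.7 CPM in cave controls, lower in each cave pool (log2 fold change -0.75 with SE 0.10, adjusted p = 8.42e-05). The other light-induced clock gene, per2, was at 55.7, 55.6, 62.3 and 62.8 CPM against 50.3, 54.6 and 53.9 CPM and was not called (log2 fold change -0.18 with SE 0.11, adjusted p = 0.242). In 1 of 16 alternative settings of the processing per2 was called lower. The repressor bhlhe40 was at 94.6, 77.6, 104 and 99.4 CPM against 38.3, 37.4 and 30.5 CPM (log2 fold change -1.42 with SE 0.14, adjusted p = 7.19e-06). The nuclear receptor rorc, which drives bmal genes, was at 35.2, 32.7, 37.96 and 38.4 CPM against 9.38, 10.1 and 11.8 CPM (log2 fold change -1.81 with SE 0.14, adjusted p = 9.24e-07). Both were lower in every cave library. In the opposite direction went dbpb, an activator that binds D-box elements, at 25.1, 27.5, 29.1 and 27.5 CPM against 149.7, 163 and 166 CPM, 5.77-fold higher (log2 fold change 2.53 with SE 0.10, adjusted p = 1.13e-09). The D-box repressor nfil3-5 went down, at 28.7, 23.5, 26.5 and 25.1 CPM against 18.96, 15.3 and 15.8 CPM (log2 fold change -0.65 with SE 0.15, adjusted p = 0.00544), so the activator and the repressor of one element moved apart. The deadenylase nocta was at 55.8, 68.7, 53.9 and 32.4 CPM against 34.9, 32.6 and 32.4 CPM (log2 fold change -0.67 with SE 0.20, adjusted p = 0.0237). Surface control 4 overlapped the cave group for nocta, and the call was lost without cave control 3 or 4 or surface control 1, 2 or 3, with an adjusted p of up to 0.0759. The CLOCK partner cipcb (0.13, adjusted p = 0.516) was not called. All values were taken at 1 time of day, so differences in level and in phase cannot be told apart.

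The study's question for these larvae was how UV damage is handled. Of 21 genes of that list tested, 4 were called higher, 2 lower and 15 were not called, so that 28.6% were called, a share near the 27.6% of all genes, with a median log2 fold change of 0.15; the 15 lay between -0.20 and 0.45. The photolyase cpdp, which repairs pyrimidine dimers with light, was at 57.7, 59.2, 58.9 and 59.1 CPM in surface and 53.2, 57.2 and 68.5 CPM in cave controls (log2 fold change 0.004, SE 0.11, adjusted p = 0.981), and the groups overlapped. The damage sensor ddb2 was at 36.6, 38.8, 37.96 and 44.2 CPM against 33.4, 37.02 and 37.2 CPM (log2 fold change -0.15 with SE 0.12, adjusted p = 0.376), again with overlap. In 1 of 16 alternative settings of the processing ddb2 was called lower. The cell cycle inhibitor cdkn1a, a main target of p53, was higher in each cave pool, at 32.9, 32.98 and 37.8 CPM against 18.8, 14.9, 14.5 and 17.3 CPM in surface controls (log2 fold change 1.06 with SE 0.14, adjusted p = 8.83e-05). The p53 target ccng1 (0.45) and the apoptosis gene bada (0.58) were also called higher. The epidermal factor tp63 had a log2 fold change of 0.72, a call that was lost without cave control 3 (adjusted p = 0.0803). The caspase activator diabloa was called lower, at 140.1, 202, 154 and 92.6 CPM against 55.5, 74.6 and 68.6 CPM (log2 fold change -1.17 with SE 0.21, adjusted p = 0.000978). The p53 target btg2 was called lower as well (-0.31), but no longer without any 1 of 6 control libraries (surface 1, 3 or 4, or cave 2, 3 or 4), with an adjusted p of up to 0.164.

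Many genes of the enterocyte list were lower in cave controls. The list also holds apoa1a, used above as a marker of liver and yolk, so it does not read gut epithelium alone. It shares dgat2 with the lipid storage list. Of 29 enterocyte genes, 15 were called lower and 1 higher, with a median log2 fold change of -0.65, against 15.0% called lower among all genes. Their summed level was 3763, 4543, 3307 and 2591 CPM in surface controls and 1941, 2059.8 and 2678 CPM in cave controls. Cave control 4 lay above surface control 4, so the groups overlapped in this sum, and the count called lower ranged from 11 without cave control 3 to 17 without surface control 4. The peptidase enpep was at 56.5, 72.7, 52.6 and 54.4 CPM against 11.9, 12.9 and 15.6 CPM (log2 fold change -2.15 with SE 0.15, adjusted p = 4.09e-07). The peptide transporter slc15a1b was at 176, 254, 146 and 104 CPM against 47.1, 23.6 and 61.1 CPM (log2 fold change -1.97 with SE 0.31, adjusted p = 0.000389). The cholesterol transporter NPC1L1 was at 16.3, 17.8, 11.96 and 9.65 CPM against 4.06, 2.92 and 4.14 CPM (log2 fold change -1.91 with SE 0.26, adjusted p = 0.000136). For these 3 genes the groups did not overlap, though surface control 4 or 3 came nearest to the cave libraries. The acyltransferase mogat3b, which rebuilds triglyceride from absorbed fat, had a log2 fold change of -1.52, and fabp2, a carrier of fatty acids, was at 456, 449, 442 and 454 CPM against 199, 190.4 and 330.1 CPM (log2 fold change -0.93 with SE 0.16, adjusted p = 0.000738). The gene called higher was the aminopeptidase anpepb, named here after its value was seen, at 135, 164, 154 and 139.8 CPM against 212, 294 and 359 CPM (log2 fold change 0.94 with SE 0.14, adjusted p = 0.000319).

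In the list for glucose and insulin, 3 of 18 genes were called higher and 3 lower (33.3%, near the 27.6% of all genes and the 34.1% of named genes), with a median of -0.05. Beside gck, the glycogen-targeting subunit ppp1r3ca was called higher (0.67), a call lost without cave control 3 or 4 or surface control 1 or 3 (adjusted p of up to 0.102). The gene pck1, which commits carbon to glucose synthesis, was at 471, 730.1, 476 and 316 CPM in surface controls and 143, 128 and 196 CPM in cave controls (log2 fold change -1.70 with SE 0.23, adjusted p = 0.000132). The glucose transporter slc2a1a was at 68.5, 57.01, 67.1 and 69.4 CPM against 28.02, 23.1 and 31.9 CPM (log2 fold change -1.26 with SE 0.13, adjusted p = 1.56e-05). Both were lower in each cave pool. Of 15 lipid storage genes, 2 were called higher and 4 lower (40.0%, against 27.6% of all genes and 34.1% of named genes). The LDL receptor ldlra was at 86.4, 100.5, 74.97 and 64.7 CPM against 36.9, 22.1 and 33.9 CPM (log2 fold change -1.41 with SE 0.19, adjusted p = 0.000109), the uncoupling protein ucp3 had a log2 fold change of -1.50 and the cholesterol carrier stard4 one of -0.82. Of 13 genes of fatty acid oxidation, 5 were called lower and 0 higher by edgeR, with a median of -0.29. The share called was 38.5%, against 27.6% of all genes and 34.1% of named genes. Without any 1 control library except cave control 4 or surface control 4, 2 or 3 of the 13 were called. The acyl-CoA synthetase acsl5 was at 30.9, 33.4, 27.2 and 27.6 CPM against 10.2, 6.96 and 11.98 CPM (log2 fold change -1.63 with SE 0.18, adjusted p = 2.38e-05), and decr2 had a log2 fold change of -1.25. Calls of dgat2 (-0.74), acaa1 (-0.72) and pex11a (-1.21) in these lists were near the threshold and did not hold when certain libraries were left out. Those of dgat2 and acaa1 were lost without cave control 2 or 3 or surface control 1 or 2 (adjusted p of up to 0.138 and 0.0660), and that of pex11a without any 1 control library except cave control 2 (up to 0.170).

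The antioxidant list also held genes that make reactive oxygen, nox1 and cyba among them. Of its 17 genes tested, 1 was called higher, 3 lower and 13 not at all. The share called was 23.5%, against 27.6% of all genes, and the median was -0.03. Without cave control 2, 9 of the 17 were called. Beside aifm2, the subunits of the enzyme that makes superoxide were lower. The oxidase nox1 was at 19.7, 11.6, 11.7 and 7.47 CPM in surface controls and 0.417, 0.785 and 1.903 CPM in cave controls (log2 fold change -3.61 with SE 0.44, adjusted p = 5.25e-05), and its partner cyba was at 32.7, 34.9, 28.5 and 35.8 CPM against 20.3, 15.03 and 18.4 CPM (log2 fold change -0.89 with SE 0.15, adjusted p = 0.000703). The peroxidase prdx6 was called higher (0.58). In the list of xenobiotic enzymes, 2 of 16 were called higher and 6 lower. These calls were a larger share than the 27.6% of all genes and the 34.1% of named genes. The list was not lower as a whole: its median was 0.13, and 9 of the 16 estimates lay above 0. The cytochrome cyp3a65 was at 69.5, 77.7, 51.4 and 48.4 CPM against 11.7, 12.3 and 17.6 CPM (log2 fold change -2.17 with SE 0.20, adjusted p = 3.54e-06), for 1 of 2 identifiers with that name, and the other was not called. The receptor ahr1b, which senses planar aromatic compounds, was at 15.4, 18.8, 15.7 and 16.1 CPM against 3.65, 4.71 and 6.38 CPM (log2 fold change -1.77 with SE 0.20, adjusted p = 3.22e-05). The transporter abcb5 was lower (-1.41) and the glutathione transferase mgst1.2 higher (1.204).

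Genes of inflammation were lower in part. Of 22 tested of the 25 identifiers in the list, 9 were called lower, 3 higher and 10 not at all, with a median of -0.38. The share called was 54.5%, against 27.6% of all genes and 34.1% of named genes. Both identifiers named il1b, the main cytokine of early inflammation, were low in cave controls. ENSAMXG00000031873 was at 7.87, 4.13, 8.06 and 2.41 CPM in surface controls and 0.521, 0.224 and 0.224 CPM in cave controls (log2 fold change -4.06 with SE 0.59, adjusted p = 0.000203), and ENSAMXG00000035729 was at 40.5, 23.5, 37.5 and 25.2 CPM against 6.77, 8.75 and 6.72 CPM (log2 fold change -2.11 with SE 0.22, adjusted p = 1.54e-05). How reads were split between these copies is uncertain, but both moved in the same direction in each cave pool. The regulator nfkbiz was at 53.7, 55.6, 45.5 and 45.9 CPM against 16.04, 26.2 and 21.1 CPM (log2 fold change -1.27 with SE 0.16, adjusted p = 7.26e-05), and the brake on Toll-like receptor signals irak3 had a log2 fold change of -1.48. Called higher were the macrophage factor spic (1.59) and, named after their values were seen, the pattern receptor ptx3a (1.02) and the antimicrobial peptide gene leap2 (1.17). The call of leap2 was lost without cave control 3 or surface control 3 or 4 (adjusted p of up to 0.0957).

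Of 19 immediate early genes, 6 were called lower and 1 higher (36.8%, against 27.6% of all genes and 34.1% of named genes), with a median of -0.33. The neuronal activity factor npas4a was at 22.4, 26.3, 38.1 and 42.7 CPM in surface controls and 16.1, 15.9 and 15.1 CPM in cave controls (log2 fold change -1.07 with SE 0.21, adjusted p = 0.00220). The AP-1 subunits junba (-0.97) and fosl2 (-0.93) were lower, and the shear stress factor KLF2 was higher (1.11). The AP-1 subunit fosl1a was at 0.997, 1.31, 1.196 and 1.29 CPM against 0.938, 0.449 and 0.5598 CPM, a trace level in both groups, and was not called (log2 fold change -0.89 with SE 0.44, adjusted p = 0.152). The integrated stress response slows translation when amino acids run short. Of its 19 genes, 5 were called lower and 1 higher (31.6%, near the 27.6% of all genes). Calls numbered 3 without cave control 3. Amino acid transporters made up 3 of the 5, slc7a3b (-1.11), slc7a1a (-0.86) and slc38a2 (-0.57, lost without cave control 3 at an adjusted p of 0.0524), and GTPBP2 was also lower (-0.83). Other amino acid transporter genes of the list were not called, with log2 fold changes between -0.07 and 0.07. The gene called higher was atf4a (0.37), named after its value was seen. Of 10 heat shock genes, DNAJA4 was called lower (-0.80) and hspb9 higher. These calls were a smaller share than the 27.6% of all genes and the 34.1% of named genes, so they do not set the list apart. For hspb9 the levels were 7.64, 10.99, 10.3 and 8.59 CPM in surface controls and 9.38, 16.04 and 22.1 CPM in cave controls, with overlap (log2 fold change 0.73 with SE 0.24, adjusted p = 0.0395), and the call was lost without cave control 3 or 4 or surface control 1, 3 or 4 (adjusted p of up to 0.208).

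Ribosomal protein genes stood higher as a block. Of 35 tested, 34 were called higher and 0 lower by edgeR, against 12.7% called higher among all genes, with log2 fold changes between 0.46 and 0.92 for those called and 0.17 for the other. The summed level was 50959, 50747, 49317 and 56708 CPM in surface controls and 71095, 92866 and 98431 CPM in cave controls, so cave control 2 was the lowest of its group and still above surface control 4. The gene RPS20 of the small subunit was at 1514, 1499, 1526 and 1789.6 CPM against 2413, 3426 and 3290.1 CPM (log2 fold change 0.92 with SE 0.13, adjusted p = 0.000175). In its qPCR of cpdp and ddb2, run on adult fins and younger larvae and not on these pools, the study normalised to rpl13a. Here rpl13a was at 1487, 1491, 1478 and 1706 CPM against 2122, 2693 and 2794 CPM (log2 fold change 0.70 with SE 0.12, adjusted p = 0.000696). Its level in the qPCR samples was not measured here. In the surface group, replicate 4 was the highest for RPS20 and rpl13a. The small subunit genes rps27a (0.88), rps12 (0.86) and rps25 (0.83) were called higher as well, by like log2 fold changes. Similar copies of these genes were not examined, and the handling of reads that map to several places is not stated, so single values are uncertain. The respiratory chain did not move as a block: of 16 genes, 2 were called higher, ndufa4 (0.77) and cox4i1l (0.73), and 1 lower, NDUFS8 (-1.30, lost without cave control 3 at an adjusted p of 0.0512). The share called was 18.8%, against 27.6% of all genes. Without cave control 2, 6 of the 16 were called.

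Hedgehog signals shape the midline and the jaw. Of the 10 genes in the list, 2 were called higher and 0 lower by edgeR (20%, against 12.7% called higher among all genes and 14.3% among named genes), a count too close to those shares to read as a difference of the list. The gene hhip was at 29.4, 34.002, 36.7 and 35.9 CPM in surface controls and 56.9, 58.1 and 62.9 CPM in cave controls (log2 fold change 0.78 with SE 0.12, adjusted p = 0.000261), higher in each cave pool than in any surface pool. The factor gli1 was called higher as well (log2 fold change 0.50 with SE 0.15, adjusted p = 0.0227), a call lost without cave control 4 or surface control 3 or 4 (adjusted p of up to 0.107). The receptor ptch1, at 79.98, 79.2, 82.5 and 85.02 CPM against 101, 88.96 and 96.6 CPM, was not called (log2 fold change 0.21 with SE 0.10, adjusted p = 0.142), nor were the other 7, between 0.01 and 0.26. Of 21 muscle genes, 5 were called higher and 1 lower (28.6%, near the 27.6% of all genes), and 10 were called without cave control 2. The muscle gene mylz3 was at 3895, 3678, 3732 and 4364 CPM against 4854, 7734 and 6312 CPM (log2 fold change 0.67 with SE 0.15, adjusted p = 0.00427). Higher by like amounts were eno3 (0.69), MUSK (0.69) and myoz2b (0.73). The call of myoz2b was lost without cave control 3 (adjusted p = 0.0622). Of 19 transmitter receptor genes, 31.6% were called, near the 27.6% of all genes and the 34.1% of named genes. Called higher were 4, among them grm5a (0.64) and grm4 (0.62), and called lower were 2, grik1b and chrnb3b (-1.23).

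**Figure D3:**
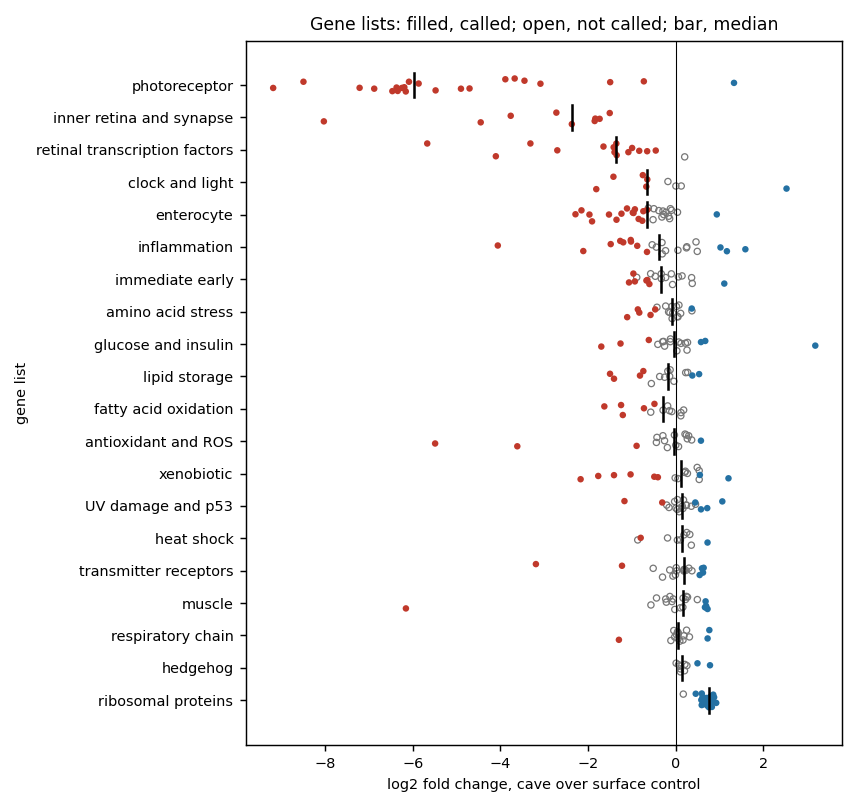
Log2 fold change of cave over surface controls (x axis) for each tested member of 20 gene lists (rows). Filled points are called genes, open points are not called, and the bar is the median of the list, from -5.98 for photoreceptor genes to 0.76 for ribosomal protein genes.

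The 7 UV-B libraries hold the same population contrast in other pools of larvae. In them, 6872 of 15510 genes tested were called (44.3%), 3363 higher (21.7%) and 3509 lower (22.6%) in cave larvae. Of the genes called in controls, 4272 were tested there, and 4041 (94.6%) had the same sign, against 68.9% of genes not called in controls. They were called with the same sign in 3237 cases (75.8%) and with the opposite sign in 30. Among the genes with at least 8-fold change, 331 were tested and 329 had the same sign (99.4%), of which 324 were called. A difference between the control and the UV-B contrast, tested as an interaction of population and treatment in the 14 libraries, was called for 596 of 16104 genes (3.70%) and for 269 of the genes called in controls (6.16%). For genes with a name the share was 15.1%.

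The retinal differences recurred in the UV-B libraries. For rho, the levels were 1894, 2102, 1956 and 1929.5 CPM in surface UV-B libraries 1 to 4 and 5.43, 4.45 and 4.83 CPM in cave UV-B libraries 1, 2 and 4 (log2 fold change -8.64, adjusted p = 2.16e-16). All 21 photoreceptor genes called lower in controls were called lower there, as were all 9 inner retina genes and 14 of 15 transcription factors, and cngb3.2 was again higher (0.86). Ribosomal protein genes also held, with 34 of 35 called higher and a median of 0.93. The vitamin D enzyme cyp2r1 was at 1.51, 2.12, 0.918 and 1.52 CPM against 48.7, 33.7 and 40.002 CPM (log2 fold change 4.71), and dbpb at 32.6, 33.6, 28.9 and 28.5 CPM against 103, 101 and 100.4 CPM (1.72).

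Other groups did not keep their control pattern under UV-B. Interaction calls in the lists below stand against 3.70% of all genes and 15.1% of named genes. The names came from tables of UV-B responses, so named genes are no random sample for this test. Of the 29 enterocyte genes, 7 were called higher and 7 lower in cave UV-B libraries, with a median of 0.07. Among all genes tested there, 21.7% were called higher and 22.6% lower. Of the 29, 7 had an interaction call. The cholesterol transporter NPC1L1 was at 17.1, 13.7, 20.7 and 16.1 CPM in surface and 32.3, 18.9 and 27.5 CPM in cave UV-B libraries, against the opposite order in controls (interaction 2.52 on the log2 scale, adjusted p = 0.000233). Glucokinase, gck, was low in UV-B libraries of both populations, at 3.84, 1.11, 1.26 and 1.198 CPM and 0.557, 0 and 1.49 CPM, so its excess in cave controls was not seen there (interaction -4.50, adjusted p = 0.00795). Of the inflammation list, 21 were tested, 11 were called higher and 1 lower, and 10 had an interaction call. Immediate early genes were called higher in 8 cases and lower in 1, and 8 of 19 had an interaction call. The clock gene cry1a was at 161, 158, 184 and 165 CPM against 43.1, 63.02 and 45.8 CPM, a wider gap than in controls (interaction -0.99, adjusted p = 0.000986), and per2, not called in controls, was at 82.0, 88.3, 80.8 and 78.7 CPM against 30.1, 34.8 and 33.7 CPM (-1.17, adjusted p = 7.72e-05).

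**Figure D4:**
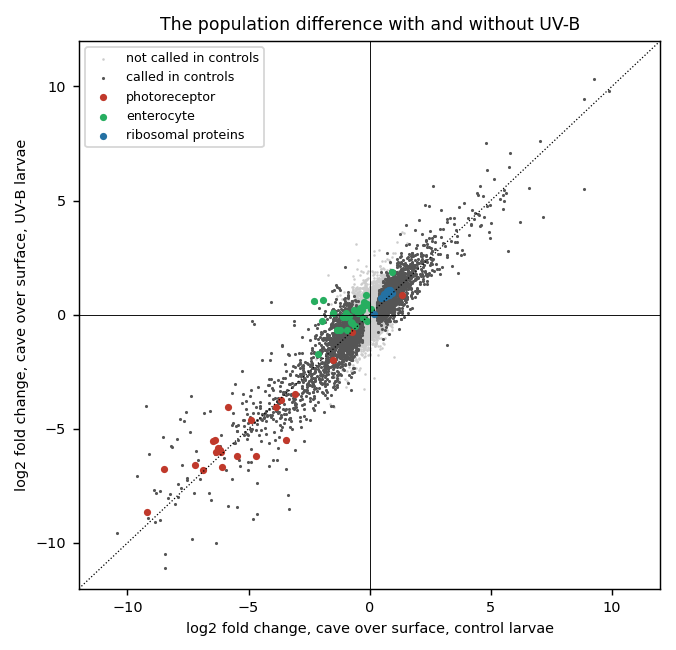
Log2 fold change of cave over surface larvae in control libraries (x axis) and in UV-B libraries (y axis), one point per gene tested in both; the dotted line marks equal values. Photoreceptor and ribosomal protein genes lie near the dotted line, and several enterocyte genes lie below 0 in controls and near or above 0 under UV-B.

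**Figure D5:**
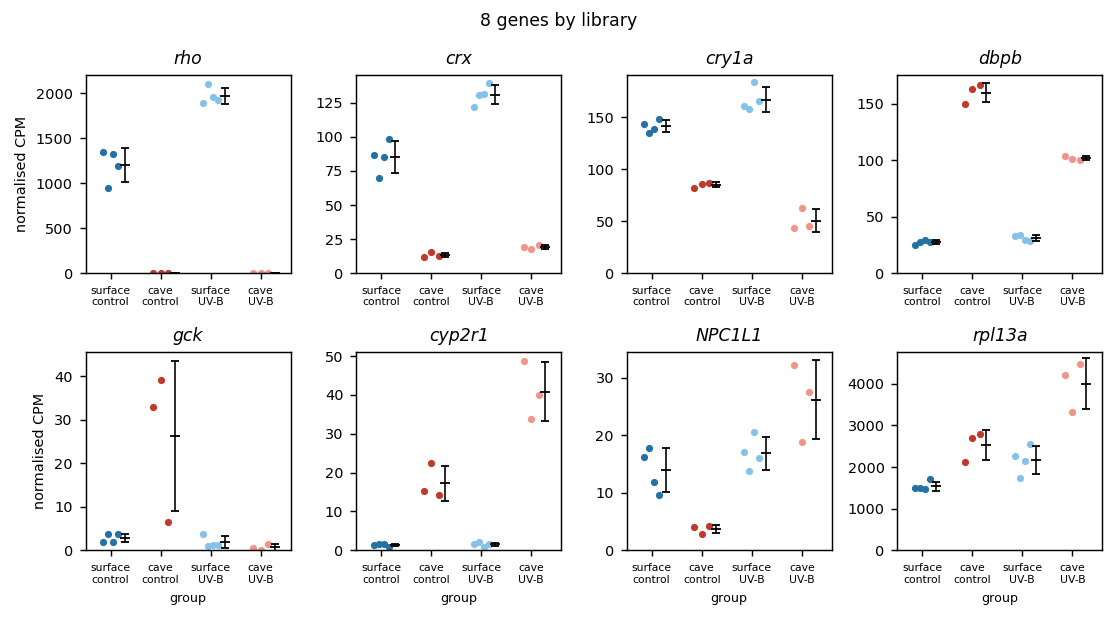
Normalised CPM (y axis, from 0) of 8 genes in every library of the 4 groups (x axis); points are libraries, and the black bar and whiskers are the mean and SD. For rho, crx and cry1a the cave libraries lie below the surface libraries in both treatments, for dbpb and cyp2r1 above them, and for gck and NPC1L1 the order differs between control and UV-B larvae.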

How the data were processed

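RNA was read from whole-body pools of 4 larvae in 14 libraries, and the labels gave each library's group and replicate number. The deposited values were raw counts per gene. Per the methods, STAR was used by the authors for mapping to genome version 2.0 with gene models of Ensembl release 108. The STAR version, strand setting, handling of multi-mapping reads and any gene filter were not given in the sources used here, so copies, overlapping and antisense genes are uncertain. The table held no columns of unassigned samples (0 unused), and all of its rows named a gene.

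Cave and surface controls were compared in edgeR 4.0.16 (R 4.3.3) by its quasi-likelihood test after filterByExpr and TMM scaling, with no covariate and with Benjamini-Hochberg adjustment over all genes tested. Genes with an adjusted p under 0.05 were called. The UV-B contrast and the interaction over 14 libraries used the same test. Alternatives used DESeq2 1.42.0, limma-voom (limma 3.58.1), other scalings and filters, a replicate block, all libraries in one fit, and leaving out each library. Standard errors were obtained by dividing the log2 fold change, without its sign, by the root of F, and fitted changes include a prior count of 0.125. Normalised CPM used TMM factors over all 14 libraries. Intervals are exact binomial at 95% and cover counting error only, since amplified reads that carry no molecular identifier can repeat a molecule. Replicates differed by a chi-square of 5.48 to 18.5 per degree of freedom, so no library repeated another. The tests were also run on simulated data.

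Names came from the identifier and name pairs in the study's supplementary tables for UV-B and in its methods (cpdp, ddb2 and rpl13a); 12 names belong to 2 identifiers, and 0 identifiers matched the reference gene table. Named genes are the 10 highest and 10 lowest called genes that averaged 50 counts or more without overlap between groups, up to 4 called members of each gene list averaging 20 counts or more, the called members of the retina, clock, UV damage and hedgehog lists with the uncalled ones as a range or by name, the genes the study discusses, and the highest and lowest unnamed gene. The compared groups, gene lists and tests were chosen with earlier results of these data known. Gene lists are described by counts and medians, with no test of the list. Some members of these lists are not reported here and were left out of the counts.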

Additional observations from a re-analysis of the deposited data

Results flagged for a closer look

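In groups of 4 surface controls, a library was set apart by Dixon's criterion when the gap to its nearest neighbour took most of the group's range. It was met in 15 of 173 groups checked, and chance alone meets it in about 1 in 20 groups. The lowest library was surface control 4 for myl7 (3.65 CPM), cyp2r1 (0.883 CPM) and klb (66.4 CPM). Surface control 4 was the highest for btg2 (229 CPM) and for the ribosomal genes RPS20 (1789.6 CPM) and rpl13a (1706 CPM). Surface control 2 was the lowest for the photoreceptor sum (3476 CPM), opn1lw1 (812 CPM), opn1sw2 (108.02 CPM), six3a (21.3 CPM) and junba (18.4 CPM). Surface control 1 stood apart for mgst1.2 (18.6 CPM, highest) and fosl2 (16.1 CPM, lowest), and surface control 3 for irak3 (5.67 CPM, highest) and WARS1 (28.1 CPM, lowest). None of these libraries overlapped the cave controls for the gene concerned.

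For 37 of 171 genes of the text, the population difference itself changed between control and UV-B larvae, by the edgeR interaction test at an adjusted p under 0.05. The share with such a call was 3.70% of all genes and 15.1% of named genes. Values are the cave minus surface log2 difference in UV-B larvae minus that in control larvae. The difference moved up, toward higher levels in cave larvae, for NPC1L1 (2.52), hspb9 (1.94), fosl1a (1.81), ucp3 (1.73), cyba (1.69), slc15a1b (1.67), mogat3b (1.55), abcc4 (1.31), nfkbiz (1.25), NR4A1 (1.199), ppp1r3ca (1.17), npas4a (1.12), junba (1.09), klb (1.08), pck1 (1.03), acsl5 (1.01), slc38a2 (0.95), anpepb (0.90) and dusp1 (0.85). It also moved up for both il1b copies, ENSAMXG00000031873 (4.59) and ENSAMXG00000035729 (2.38). It moved down for gck (-4.50), impg1b (-2.09), prdm13 (-1.88), trpm1b (-1.70), htr2cl1 (-1.64), cdhr1a (-1.52), ahr1b (-1.32), slc2a15b (-1.31), six7 (-1.28), per2 (-1.17), pax6a (-1.16), cry1a (-0.99), gabrr1 (-0.90), dbpb (-0.83), grm4 (-0.78) and grm5a (-0.72). The largest shifts were those of il1b ENSAMXG00000031873, low in cave controls and not called under UV-B (0.56, adjusted p = 0.129), and of gck, high in cave controls alone. Retinal genes in this group (impg1b, cdhr1a, trpm1b, gabrr1, six7, pax6a and prdm13) were lower in cave larvae in both treatments, by more in UV-B larvae. They were 2 of 22 photoreceptor, 2 of 9 inner retina and 3 of 15 transcription factor genes, beside 15.1% of named genes. A wider gap under UV-B did not hold for all retinal genes. For rho it was -9.18 in controls and -8.64 under UV-B, with no interaction call.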

How the results depend on the processing

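Calls numbered 4581 with DESeq2's Wald test, 4394 with limma-voom, 5042 in a fit of all 14 libraries, and between 3243 (without surface control 3) and 5206 (without cave control 2) when a single library was left out, against 4367. With library totals in place of TMM, calls were 1192 higher and 3845 lower, so that 76.3% of calls were lower in cave larvae against 54.1%. DESeq2 size factors gave 49.3% and upper quartile scaling 47.7%. With at least 10 counts required in every library, genes with fewer counts in cave larvae drop out by construction, and calls of at least 2-fold numbered 1023 against 1713. Calls lower in the photoreceptor list were then 14 of the 21, since fewer were tested.

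Same-numbered libraries of the populations did not deviate together (correlations of 0.000233, -0.155 and 0.00484 for controls 2, 3 and 4), so the numbers are not taken to pair them. With replicate number as a block, 2874 genes were called, 1240 of them higher. For the UV-B larvae the count was 6678 with the block, 6576 with DESeq2 and 5771 to 6521 without a single library, against 6872.

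Of 164 called genes in the text, 134 kept call and direction under every alternative that tested them. In at least 1 alternative 30 lost the call, and 0 reversed. Some genes, prph2b and nrl among them, were tested in 15 alternatives, against 16 for rho. Library totals ended the calls of tp63, gli1, ppp1r3ca, hspb9 and, among genes named after their values were seen, ldlrb, drd2a, igf2b, htr2cl1, atf4a and PPARG. Of 7 uncalled genes, 2 were called in some alternative, ddb2 and per2, each in 1 of 16. Their lowest estimates over the alternatives were -0.33 and -0.36. The estimate for cpdp, near 0, changed sign, to -0.18 with library totals, -0.0030 with no filter, -0.0049 with at least 10 counts, -0.0017 with limma-voom and -0.0097 with the replicate block, and ran from -0.072 to 0.11 without a single library. That of cipcb was -0.044 with library totals. The replicate block ended 25 calls, 4 of which (ccng1, KLF2, MUSK and nr4a3) no other alternative ended.

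Gene lists were counted in 1 direction for retina, clock, enterocyte, inflammation, immediate early, ribosomal and hedgehog genes and in either direction for the others. Beyond 1.5 times, counts moved as follows. With library totals, 1 hedgehog gene was called against 2, 8 antioxidant genes against 4 and 8 genes of fatty acid oxidation against 5. The last list had 3 calls with DESeq2 size factors or upper quartile scaling and 2 with the block. With at least 10 counts, 2 antioxidant genes were called. The block gave 1 hedgehog gene, 3 glucose genes against 6 and 1 heat shock gene against 2. Without a single library, calls numbered 1 to 2 (hedgehog), 4 to 9 (antioxidant), 2 to 5 (fatty acid oxidation), 3 to 5 against 6 (integrated stress), 2 to 6 against 3 (respiratory chain), 5 to 10 against 6 (muscle) and 1 to 3 (heat shock).

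Genes at a few counts in cave larvae have wide counting intervals, and 3 counts equal 0.197 to 0.380 CPM in the control libraries.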

Other observations

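The following genes lie outside the naming rule and were chosen after their values were seen. Several stood at trace levels in cave larvae. The phosducin gene pdcb, whose product binds transducin subunits, was at 25.9, 22.4, 31.6 and 25.4 CPM in surface controls and 0.521, 0 and 0.672 CPM in cave controls (log2 fold change -6.02 with SE 0.37, adjusted p = 8.76e-08). The teleost opsin opn6a was at 11.7, 9.39, 14.4 and 13.7 CPM against 0.521, 0.785 and 0.672 CPM (log2 fold change -4.23 with SE 0.30, adjusted p = 3.58e-07). The synaptic vesicle protein sv2ba was at 53.3, 47.3, 50.4 and 54.1 CPM against 1.88, 1.46 and 1.46 CPM (log2 fold change -5.01 with SE 0.18, adjusted p = 3.90e-10), and the mitochondrial phosphate carrier slc25a3a, a partner in ATP synthesis, was at 61.4, 44.2, 55.8 and 45.1 CPM against 0.833, 1.01 and 1.34 CPM (log2 fold change -5.61 with SE 0.23, adjusted p = 1.13e-09). All 4 were at 1.88 CPM or less in every cave control, and pdcb had 0 counts in cave control 3. The retinol carrier gene rbp4l (-2.80), the calcium binder calb2b (-2.40) and the forebrain factor foxg1b (-2.89) were lower without reaching such low levels.

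A pair of genes with roles in pigment cells was lower in cave larvae. The receptor kita, which melanocytes need, was at 27.8, 30.9, 27.9 and 21.9 CPM in surface controls and 11.3, 8.97 and 9.29 CPM in cave controls (log2 fold change -1.47 with SE 0.17, adjusted p = 3.27e-05). The transporter slc2a15b, required in yellow pigment cells of medaka, was at 33.2, 47.9, 37.01 and 42.01 CPM against 8.33, 12.9 and 12.3 CPM (log2 fold change -1.86 with SE 0.18, adjusted p = 6.16e-06). Of genes with roles in gut or liver, klb, an FGF co-receptor (-1.83), apoba of lipoproteins (-1.35), vil1 of the brush border (-1.24) and the sterol exporter ABCA1 (-1.41) were lower. The tissue in which their transcripts were read was not measured. Surface control 4 had the lowest level of its group for these 4 genes. Called higher were the adenylate kinase ak4 (1.11), the kinase lrrk2 (1.11), the linker histone h1-10 (1.18) and the factor runx3 (1.14).

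Further called members of the lists were also named after their values were seen. Higher in cave larvae were acta1b (0.68) of muscle, drd2a (0.60) and htr2cl1 (0.55) of the transmitter receptors, igf2b (0.58), PPARG (0.53) and ldlrb (0.38) of metabolism, mgst3b (0.55) of the xenobiotic list and atf4a (0.37) of the stress response. Among these, drd2a, htr2cl1, igf2b, PPARG, ldlrb and atf4a lost the call without at least 1 of cave controls 3 and 4 or of the surface controls (adjusted p of up to 0.162, 0.0925, 0.0521, 0.190, 0.0711 and 0.0836). Lower in cave larvae were g6pca.2 (-0.61) of the glucose list, hsd17b4 (-0.48) of fatty acid oxidation, WARS1 (-0.47) of the stress response, abcc4 (-1.03), mgst2 (-0.49) and gsta.1 (-0.41) of the xenobiotic list, and the immediate early genes nr4a3 (-0.67), dusp1 (-0.65) and NR4A1 (-0.60). Of these, g6pca.2, hsd17b4, WARS1, mgst2, gsta.1 and NR4A1 lost the call without cave control 2, without cave control 3 and without each of at least 2 surface controls (adjusted p of up to 0.1296, 0.236, 0.127, 0.164, 0.184 and 0.127).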
